A study of Drosophila melanogaster with 12 samples.

Results

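The comparison set libraries in which splicing was shifted at a 40% level against control libraries, in RNA sequencing data simulated by computer to model Drosophila S2 cells. It held 6 of the 12 libraries of the study: the 3 titled KD_ASchange_40%, which model S2 cells given an siRNA against the splicing factor PSI, and the 3 titled control, which model the same line given a non-targeting siRNA. S2 is an embryonic Drosophila line with hemocyte-like properties. No cell was treated, so the values describe which genes of a known answer were recovered. The other 6 libraries were simulated at the 60% and 20% levels and were compared with the same 3 control libraries.

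The comparison was run through 6 programs, the junction-based JUM and MAJIQ, the event-based rMATS and MISO, the graph-based Whippet and the transcript-based Cufflinks. For each the authors deposited 1 table with 1 score per gene for this comparison. They also deposited a list of 2000 genes marked as alternatively spliced, the AS list, and a list of 14595 genes marked as not, the non-AS list. The AS list is 12.1% of the 16595 genes. A score pools the 3 libraries of both groups, so there was no spread between libraries, no depth per library and no test over samples. The tables hold no expression level, so the hemocyte markers that define S2 cells could not be checked. Psi, the gene whose loss is modelled, is on the non-AS list; in the authors' deposited tables only Cufflinks listed it, at a score of 0, which says nothing of its level.

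Alternative splicing joins the exons of a gene in different ways, so that transcripts include or skip a cassette exon, use another donor (5′) or acceptor (3′) splice site, keep an intron, choose between mutually exclusive exons, or begin and end on different first and last exons. The donor site is recognised by the U1 particle and the acceptor site by U2AF, and SR proteins and hnRNPs shift the choice between competing sites. PSI, a protein with KH-type RNA-binding domains, is known for holding back splicing of the P-element transposase transcript in Drosophila somatic cells. JUM works from split reads at splice junctions without a transcript annotation, MAJIQ from local splicing variations, rMATS from annotated event types, Whippet from a graph of exon segments that also holds transcript starts and ends, Cufflinks from the abundance of whole transcripts, and MISO from isoform models compared by a Bayes factor.

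A gene was counted as called when its score was 0.95 or more, or when its MISO Bayes factor was 10 or more. Whippet called the most AS-list genes, 807 of 2000 (40.35%, 95% exact interval 38.2 to 42.5). These were 52.3% of the AS-list genes in its table, where 24.7% of all listed genes were called. MAJIQ called 576 (28.8% of the list, 26.8 to 30.8), which were 78.0% of the AS-list genes it listed, against 30.9% of its whole table. JUM called 557 (27.85% of the list, 25.9 to 29.9), or 91.0% of those listed, against 41.6% of its whole table. rMATS called 397 (19.85% of the list, 18.1 to 21.7), or 77.4% of those listed, against 34% of its whole table. Cufflinks called 394 (19.7% of the list, 17.98 to 21.5), or 21.6% of those listed, against 2.9% of its whole table. MISO called 5 (0.25% of the list, 0.081 to 0.582), or 4.03% of those listed, against 1.52% of its whole table. The intervals count genes, which are not replicates of the simulation.

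**Figure D1:**
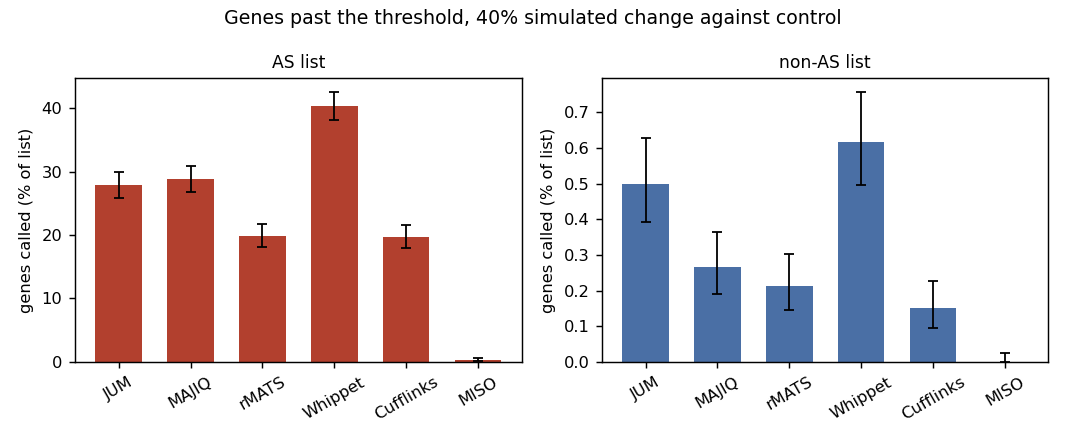
Percent of the AS list (left, 2000 genes) and of the non-AS list (right, 14595 genes) called by each program at the 40% level, with 95% exact intervals over genes as error bars. Note the different vertical scales: AS-list shares reach 40.35% with Whippet, while non-AS-list shares stay at or below 0.617%.

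The non-AS list gives the background measured the same way. Whippet called 90 of the 14595 non-AS-list genes, JUM 73, MAJIQ 39, rMATS 31, Cufflinks 22 and MISO 0, which allows up to 0.0253% by the exact interval, though MISO listed only 204 of them. Among all genes that JUM called, 88.4% (85.7 to 90.8) belonged to the AS list. This share was 89.97% (87.8 to 91.9) with Whippet, 92.8% (89.9 to 95.03) with rMATS, 93.7% (91.4 to 95.5) with MAJIQ and 94.7% (92.1 to 96.7) with Cufflinks. Neighbouring programs in that order have overlapping intervals, and the order depends on the threshold. With a score of 0.99 the share was 96.9% for Whippet, 96.0% for rMATS, 95.6% for Cufflinks, 94.2% for MAJIQ and 94.0% for JUM. The non-AS-list counts moved as well, to 24 with Whippet, 35 with JUM and 16 with rMATS at 0.99, and to 190, 124 and 48 at 0.9. The tables differ in how many genes they hold. Cufflinks listed 1822 AS-list genes, Whippet 1544, MAJIQ 738, JUM 612, rMATS 513 and MISO 124.

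Among the genes a program listed, the score ordered the lists to different degrees. The area under the ROC curve, where 1 means that every AS-list gene outranks every non-AS-list gene and 0.5 means no order, was 0.938 for JUM (95% DeLong interval 0.923 to 0.954), 0.864 for rMATS (0.840 to 0.889), 0.847 for MAJIQ (0.823 to 0.870), 0.682 for Whippet (0.662 to 0.702), 0.647 for Cufflinks (0.636 to 0.657) and 0.554 for MISO (0.489 to 0.620). Each area is over a different set of genes. The order of programs changed over all genes of both lists, where the area was 0.834 for Whippet and 0.630 for JUM. In the authors' deposited tables the median score of listed AS-list genes was 1 with JUM, MAJIQ and rMATS, against 0.437, 0.00187 and 0.0788 for listed non-AS-list genes. The Whippet medians in the authors' deposited table were 0.984 and 0.634, and both Cufflinks medians were 0. The lowest score in the authors' deposited Whippet tables was 0.5 at each level, so Whippet values near 0.5 are at the bottom of its range. Scores of exactly 1 were given by rMATS to 342 genes, of which 341 were on the AS list, and by Whippet to 697, of which 690 were. JUM gave them to 518 genes, of which 506 were on the AS list, and MAJIQ to 465, of which 446 were.

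Over the 6 programs together, 882 AS-list genes (44.1%, 41.9 to 46.3) were called by 1 or more, where 6.66% of all genes were. The 4 or more programs that make a majority called 397 AS-list genes (19.85%), where 2.4% of all genes passed. On the non-AS list 223 genes were called by 1 or more programs and 2 by 4 or more. The AS-list genes fell into a large set with no call (1118), a set with 1 call (216), smaller sets with 2 (112), 3 (157) and 4 (162), a second peak at 5 (233) and 2 genes at 6. With the same control libraries, 935 AS-list genes were called by 1 or more programs at the 60% level (background 7.18%) and 771 at the 20% level (background 5.65%). The set with 4 or more calls held 432 genes at 60% (background 2.6%) and 263 genes at 20% (background 1.58%).

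The most frequent combination was every program except MISO, which applied to 232 AS-list genes. Whippet alone called 178, the set of JUM, MAJIQ and Whippet 124, those and rMATS 87, and Whippet with Cufflinks 55. JUM and MAJIQ shared 518 AS-list genes, 93.0% of the JUM calls and 89.9% of the MAJIQ calls. JUM and rMATS shared 350, which was 62.8% of the JUM calls and 88.2% of the rMATS calls. Whippet held 94.7% of the AS-list genes that Cufflinks called, and Cufflinks held 46.2% of those of Whippet.

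Calls were divided by annotated transcript structure. Of the 2000 AS-list genes, 1974 (98.7%) found a gene of the same or an older name in Ensembl release 115, built on BDGP6.54, which is not the dm3 build named in the submitters' processing notes, so an isoform present in one and not in the other would be misplaced here. In this annotation 831 AS-list genes (42.1% of those matched) have 1 transcript. Only 3 of these 831 were called by any program (0.361%, 0.0745 to 1.05), namely Art8, CG14117 and CG34113. Of the 1143 AS-list genes with 2 or more transcripts, 865 were called (75.7%, 73.1 to 78.1). Of the matched non-AS-list genes, 57.5% have 1 transcript. These structural counts were made after the calls had been seen, and carry no test.

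Art8, an arginine methyltransferase gene, passed only with JUM, at 0.951 in the authors' deposited table. CG34113, now named side-III, passed only with rMATS, at 0.998 in the authors' deposited table, and CG14117, a pseudogene in the current annotation, was called by JUM, MAJIQ, rMATS and Whippet.

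Between a single transcript and an alternative splicing event lies a group of 314 AS-list genes with 2 or more transcripts and no event of the types examined here. Some of them still differ in their introns, as Cyt-c-p does. Of the 314, 194 (61.8%, 56.2 to 67.2) were called by Whippet and 49 (15.6%) by Cufflinks. The share called differed with the position of the difference. Where the transcripts share their start and differ in where they stop, 138 of 180 genes (76.7%, 69.8 to 82.6) were called. Where they share their stop and differ in where they start, 26 of 83 (31.3%, 21.6 to 42.4) were. These intervals do not overlap. Where both ends differ, 32 of 40 were called. Of the 175 matched genes that Whippet alone called, 143 belong to the 314. Bub1, a spindle checkpoint kinase, is such a gene, with 3 transcripts and 1 intron chain, meaning 1 distinct set of introns. In the authors' deposited tables it scored 1 with Whippet and 0 with Cufflinks, and the other programs did not list it. Aats-ser, the mitochondrial seryl-tRNA synthetase (now SerRS-m), and par-6, a scaffold of apical cell polarity, have the same pattern of scores in the authors' deposited tables. her, a zinc finger gene of sex determination with 2 transcripts and 1 intron chain, passed with Whippet and Cufflinks at the 60%, 40% and 20% levels, with Cufflinks scores of 0.9997, 0.9996 and 0.966 in the authors' deposited tables. The Cdc25 phosphatase string (stg), which drives entry into mitosis, scored 1 with Whippet at all 3 levels, and with Cufflinks 0.9997 at 60%, 0.9986 at 40% and 0.698 at 20% in the authors' deposited tables.

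The 829 AS-list genes with 1 or more annotated event types were called in 80.7% of cases (77.8 to 83.3), and 46.9% of them passed with 4 or more programs. The share called by 4 or more programs went from 31.1% of the 421 genes with 1 event type to 52.97% with 2, 65.9% with 3 and 78.6% with 4. On the non-AS list 3.99% of the 4364 genes with an event were called by 1 or more programs, and 0.430% of the 9995 without. All 33 AS-list genes with 11 or more intron chains were called, each by 3 or more programs, among them heph (24 chains), Tm1 (18) and Imp (12). Length ran with structure: 18.2% of the shortest quartile of AS-list genes (up to 1484 bases) were called, and 73.3% of the longest. With quartiles drawn anew among genes with an event, the shares from shortest to longest were 74.5%, 80.2%, 85.0% and 83.1%.

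**Figure D2:**
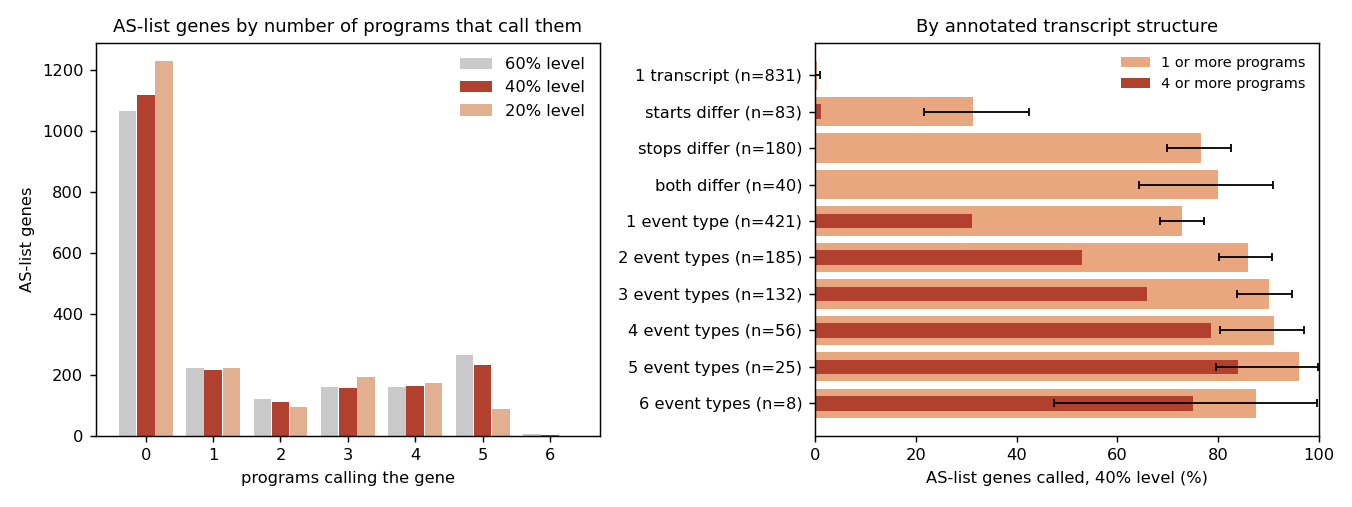
Left: number of AS-list genes (vertical axis) by how many of the 6 programs called them, for the 3 simulated levels, which share their control libraries. Right: percent of AS-list genes called at the 40% level by annotated structure, wide bars for 1 or more programs with 95% exact intervals and narrow bars for 4 or more; genes with 1 transcript sit at 0.361% and genes with an event type between 72.9% and 96.0%.

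Event types differed in who called them. Of 215 AS-list genes with a cassette exon, Whippet called 84.2%, JUM 80.0%, MAJIQ 78.6%, rMATS 73.0% and Cufflinks 52.6%, and 68.4% passed with 4 or more programs. Alternative 5′ splice sites (283 genes) were close to this with 84.5%, 79.9%, 79.9% and 64.3% with the first 4 in the same order, and Cufflinks called 150 of them. Alternative 3′ splice sites (278 genes) gave 80.2%, 77.7%, 79.5%, 69.8% and 52.2%. Genes often carry several types, so these sets overlap. The clearest separation came from genes with a single type. Of 76 genes whose only event is a retained intron, Whippet called 73.7%, MAJIQ 57.9%, Cufflinks 43.4%, JUM 36.8% and rMATS 35.5%. The programs also listed different shares of the 76: Whippet and Cufflinks 90.8% each, MAJIQ 71.1%, and JUM and rMATS 40.8% each. The low shares of JUM and rMATS thus lie close to the shares they listed. G9a, a histone H3 lysine 9 methyltransferase gene on the X chromosome (245978 to 254650, plus strand, BDGP6.54), has a retained intron as its only event. In the authors' deposited tables it scored 1 with JUM, MAJIQ, rMATS and Whippet and 0.9996 with Cufflinks, the highest value that program gave at this level.

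Alternative first exons were the most frequent type and the least often called. Of 447 AS-list genes that carry them, 76.5% were called by 1 or more programs and 40.5% by 4 or more. Of 167 genes with no other event, Whippet called 44.9%, JUM and MAJIQ 41.9% each, and Cufflinks 7.78%. rMATS listed 1.20% of the 167, JhI-21 (an amino acid transporter gene) and eIF3-S9 (an initiation factor subunit), and called both. Cdk4, the cyclin D dependent kinase, carries no other event. In the authors' deposited tables it passed with Cufflinks alone at 0.9996, beside 0.649 with JUM, 0.0445 with MAJIQ and 0.710 with Whippet.

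Mutually exclusive exons marked 32 AS-list genes. JUM, MAJIQ and Whippet called 93.8% each, Cufflinks 53.1% and rMATS 62.5%, and the 2 genes without a call were SK, a potassium channel gene, and Unc-115b. Dscam1, the cell adhesion gene known for its blocks of mutually exclusive exons, has 75 annotated intron chains. At all 3 levels it scored 1 with JUM, MAJIQ and Whippet in the authors' deposited tables, which list it neither for rMATS nor for Cufflinks. srp, the GATA factor of hemocyte fate, was called by all but MISO.

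Negative scores appeared in the authors' deposited rMATS table for 10 genes, at whole numbers from -146 to -197, outside the scale of the rest, and these genes were chosen after their values were seen. Of the 10, 9 have annotated mutually exclusive exons, against 5.71% of the 1260 genes rMATS listed. The 4 on the AS list were Snap25, a neuronal SNARE gene, babo, a type I activin receptor, laccase2, a cuticle tanning oxidase, and CG4300. JUM, MAJIQ and Whippet called all 4. Snap25 scored 1 with JUM, MAJIQ and Whippet and 0.9996 with Cufflinks in the authors' deposited tables, while rMATS stood at -146. The non-AS-list genes below 0 were Cnx99A, LM408, MRP, Mhc, qvr and CG40498, of which MRP passed with JUM and CG40498 with Whippet.

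**Figure D3:**
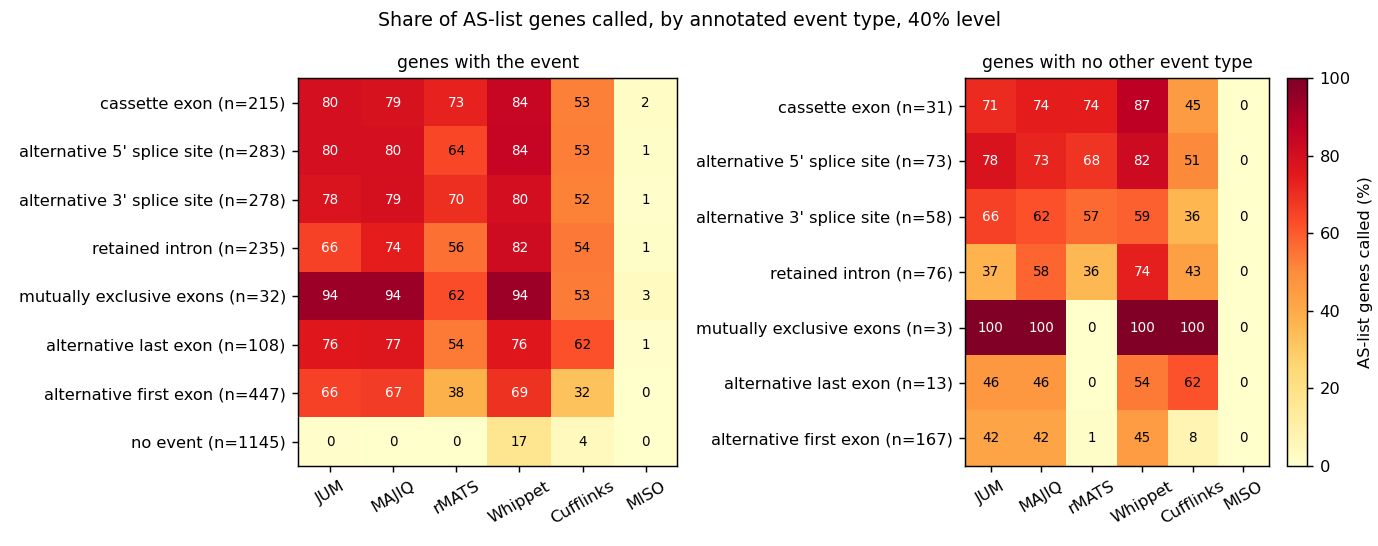
Percent of AS-list genes called by each program at the 40% level (colour and printed value, rounded to a whole percent), for genes that carry an annotated event type (left) and for genes that carry no other type (right); n is the number of genes per row. With no other event, rMATS is at 0% for mutually exclusive exons, which are 3 genes, all listed, at scores of -146 or -197. It is at 0% for alternative last exons, where it listed 0% of 13 genes. For alternative first exons it listed and called near 1%.

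Only iPLA2-VIA and Pka-R2 were called by all 6 programs. iPLA2-VIA encodes a calcium-independent phospholipase A2 and lies on 3L at 9860217 to 9864349 (minus strand, BDGP6.54), with 4 transcripts and 4 event types. In the authors' deposited tables it scored 1 with JUM, MAJIQ, rMATS and Whippet and 0.9996 with Cufflinks, and its Bayes factor was 188. That Bayes factor stood at 1e+12 for 60% and at 5.16 for 20% in the authors' deposited tables. Pka-R2, a regulatory subunit of cAMP-dependent protein kinase, had Bayes factors of 13.2, 48.5 and 1.29 at the 60%, 40% and 20% levels in the authors' deposited tables, so its MISO value does not follow the order of the levels. Besides these, MISO called kra, Ziz and mtacp1, which were named after their values were seen. kra, a translation regulator gene, stayed at a Bayes factor of 1e+12 at all 3 levels in the authors' deposited tables. Ziz had 194 at 40% and 0.770 at 20%, and mtacp1, the mitochondrial acyl carrier protein, 39.3 and 0.430, in the authors' deposited tables. Tl, the Toll receptor of embryonic patterning and immunity (3R, 26799041 to 26842403, plus strand, BDGP6.54), has 1 event type, a cassette exon. It was called by 5 programs, and its Bayes factor was 5.86 in the authors' deposited table, the highest below the threshold.

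The gene groups that follow are read beside the whole AS list, of which 44.1% was called by 1 or more programs and 19.85% by 4 or more, with no test of a group. For AS-list genes with an event these shares were 80.7% and 46.9%, the background for counts of such genes. All 8 AS-list members among hnRNPs and other splicing regulators were called, 6 of them by 4 or more programs, and all 8 carry an event. A2bp1 (the fly Rbfox gene), aret (Bruno), Imp and pUf68 passed with 5 programs, Rox8 and heph (the fly PTB gene) with 4, Rbp9 with 3 and nito with 2. heph scored 1 with JUM, MAJIQ, rMATS and Whippet and 0 with Cufflinks in the authors' deposited tables. Imp, an mRNA localisation protein, stood with Cufflinks at 0.9997 at 60%, 0.996 at 40% and 0.539 at 20%, and at 1 with JUM, rMATS and Whippet, in the authors' deposited tables. All 3 AS-list members among SR proteins and their kinases were called: B52, SC35 and the kinase SRPK, with 5, 5 and 3 programs. B52 (3R, 13661311 to 13666891, plus strand, BDGP6.54) has 10 transcripts and 10 intron chains, and was called by the same 5 programs at all 3 levels. In the core spliceosome none of its 6 AS-list members (Cbp20, Cbp80, RnpS1, SmB, SmE and snRNP-U1-C) carries an event, and Cbp80, the large subunit of the cap-binding complex, was the 1 called. SmB and SmE, of the ring around spliceosomal RNAs, were listed by Cufflinks alone, at 0 in the authors' deposited table. In the sex determination cascade her and nito were called by Whippet and Cufflinks, and vir by none.

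Among 10 AS-list genes of mRNA decay and small RNA pathways, 7 were called and all 6 with an event were among them. AGO3, a Piwi family protein that amplifies piRNAs, scored 1 with JUM, MAJIQ and Whippet and 0.207 with rMATS in the authors' deposited tables. Dcr-2, which makes siRNAs, and Smg5, of nonsense-mediated decay, were each called by 4 programs, Dcr-2 without Cufflinks and Smg5 without rMATS, which did not list it. piwi lay just below the Whippet threshold, at 0.949 in the authors' deposited table.

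In translation, 16 of 22 AS-list cytoplasmic ribosomal protein genes were called and 11 by 4 or more programs. Every one of the 13 with an event was called. RpL10, RpL10Ab, RpL13, RpL15, RpL36, RpS15Aa and RpS9 passed with 5 programs. RpL5 and RpS3A passed with the same programs except Cufflinks, where both stood at 0 in the authors' deposited table. RpL30, RpS28b and RpS3 passed with Whippet alone. RpS20, which has 1 intron chain, was listed by JUM, MAJIQ, rMATS, Whippet and Cufflinks and called by none, with a top score of 0.517 in the authors' deposited tables. Of 9 translation factors 8 were called, among them the cap-binding protein eIF-4E, the helicase eIF-4a, eIF-4B and eIF5 with 5 programs each. Mitochondrial ribosomal proteins gave 2 of 13, mRpL21 and mRpS18B, both with Whippet alone, and none of the 13 carries an event. Proteasome subunits gave 1 of 7, Prosalpha6, again with Whippet alone and with no event in the group. Among 7 aminoacyl-tRNA synthetases 4 were called, Aats-pro by 5 programs, Aats-val by 4, Aats-asp by 3 and Aats-ser by 1.

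Energy and proton pump genes were few. Of 6 AS-list genes of mitochondrial respiration 2 were called: ATPsyn-beta, the catalytic subunit of ATP synthase, scored 1 with JUM, MAJIQ and Whippet and 0 with rMATS and Cufflinks in the authors' deposited tables, and CoVIII passed with Whippet. Of the 4 vacuolar proton ATPase genes VhaPPA1-1 and VhaSFD passed with 4 programs and VhaM9.7-b with 2. VhaPPA1-1 missed the Whippet threshold at each level, with 0.750, 0.649 and 0.614 in the authors' deposited tables, while JUM, MAJIQ and rMATS gave it 1.

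Of 9 AS-list genes of insulin, TOR and receptor kinase signalling 8 were called, 7 of them by 4 or more programs, and all 9 carry an event. They include the kinases Pi3K92E, Pi3K68D and Akt1, the adaptor drk, the phosphatase csw and the transcription factor foxo, and ksr had no call. Both AS-list genes of the protein kinase A group, the regulatory subunits Pka-R1 and Pka-R2, were called by 5 or more programs. In Toll and Imd immunity 3 of 7 were called, close to the whole-list share of 44.1%. Tl, Ect4 (the fly SARM gene) and PGRP-LA, which carry events, passed with 5 programs, and PGRP-LF, PGRP-SB1, PGRP-SD and ird5, which carry none, passed with none. Of 9 genes known for hemocytes 6 were called, srp and the peroxidasin gene Pxn by 5 programs, the collagen gene Cg25C by 4 and the Friend of GATA gene ush by 3. Cg25C scored 0 with rMATS and 0.9996 with Cufflinks, and ush 0 and 0.458, in the authors' deposited tables.

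The cytoskeleton gave 13 of 17 AS-list genes for actin, muscle and myosin, with 9 at 4 or more programs. ena, which lengthens actin filaments, the tropomodulin gene tmod, the tropomyosin gene Tm1 and bif reached 5. Microtubule and kinesin genes gave 6 of 12. The dynein regulator nudE, tacc, CLIP-190, stai and the kinesin gene unc-104 had 5 programs each, and futsch had 1. tacc stood with Cufflinks at 0.9995 at 60%, 0.980 at 40% and 0.00793 at 20% in the authors' deposited tables, with 1 from JUM, MAJIQ, rMATS and Whippet at each level. In cell polarity 5 of 6 were called, l(2)gl by 5 programs and sdt by 4. Small GTPases and their regulators gave 13 of 20 and membrane trafficking 13 of 20, and in trafficking all 10 genes with an event were called. The endocytosis genes Dap160, Eps-15 and Chc and the syntaxin gene Syx7 had 5 programs. Of 10 neuronal and adhesion genes with many isoforms 5 were called and 1 by a majority, the receptor phosphatase Lar. Here 7 of the 10 carry an event in the annotation used, and only 4 of those 7 were called. Ubiquitin and autophagy genes gave 14 of 18, most by 3 programs or fewer, with Atg7 and Nedd4 at 5 and lwr at 4.

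In the nucleus, 9 of 12 chromatin and insulator genes were called, and of the 11 that were matched to the annotation these are the 9 with an event, with G9a, the histone demethylase gene Kdm2 and Df31 at 5 programs. Pc and esc had no event and no call, and Sir2, which was not matched, had no call. Of 27 transcription factor and steroid response genes 17 were called and 11 by 4 or more programs, among them the ecdysone receptor EcR, Mef2, Adf1, Taf1, cnc and yki. EcR stood with MAJIQ at 1 at 60% and 40% and at 0.922 at 20%, and with Cufflinks at 0.9996 at 40% and 0.703 at 20%, in the authors' deposited tables. Cell cycle and replication genes gave 8 of 20 and none with 4 or more programs, and 4 of the 20 carry an event. twe, the germline Cdc25 phosphatase, had 3 programs, and stg and cdc2c had 2. Genes with names of noncoding RNAs, most of them CR symbols, gave 15 of 129, with CR43628 and CR43868 at 5 programs and CR43957 at 4, and 22 of the 127 that were matched carry an event. Across the 28 groups 21 stood above the whole-list share of 44.1%. Pooled over the groups, however, 194 of 417 distinct AS-list genes were called, beside 688 of the 1583 AS-list genes in no group. In 17 of the 25 groups that hold an AS-list gene with an event every such gene was called. The groups overlap in a few genes and were written with earlier results of these data known.

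**Figure D4:**
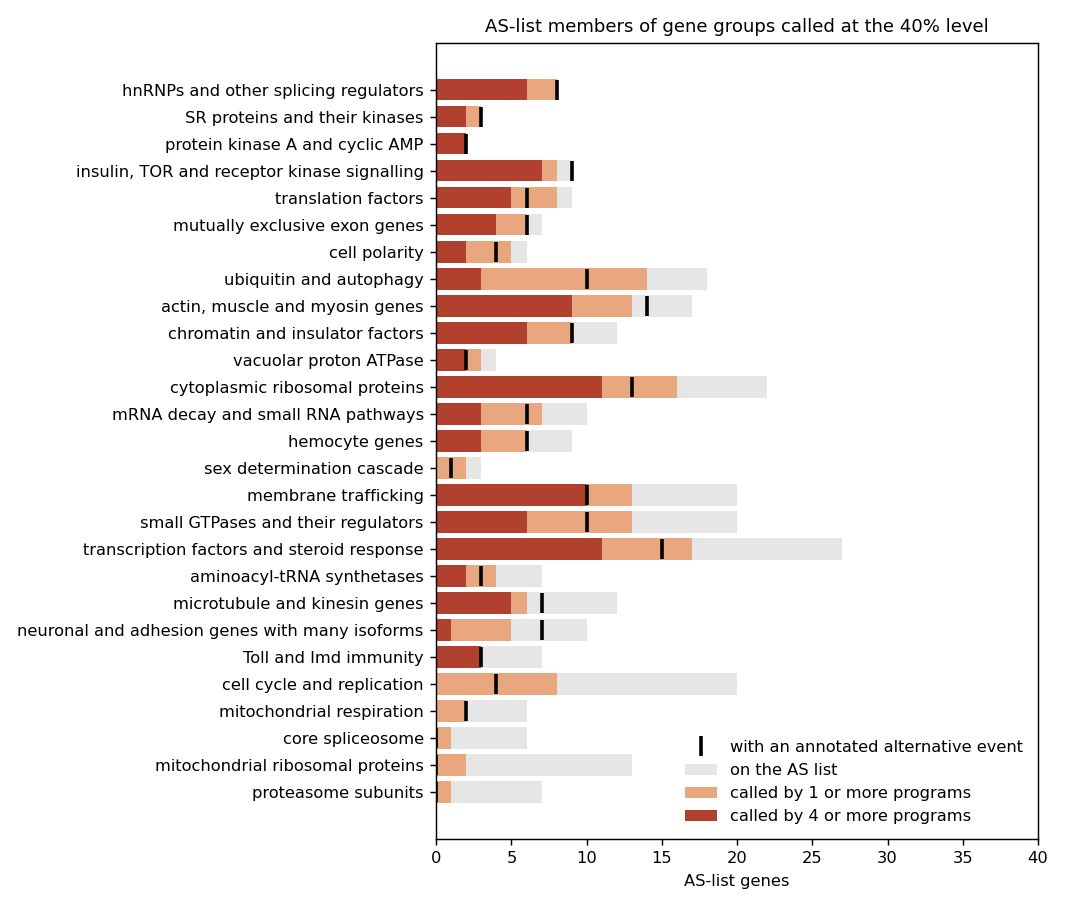
Number of AS-list genes in each gene group (grey, horizontal axis), those called at the 40% level by 1 or more programs (orange) and by 4 or more (red), and those with an annotated alternative event (black tick); the noncoding genes are left out for scale. In the core spliceosome, mitochondrial ribosomal protein and proteasome groups the tick is at 0 and no gene reaches 4 programs.

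By chromosome arm the share called by 1 or more programs ran from 39.2% on 2R to 51.4% on X, and on the small chromosome 4 it was 19 of 26 (73.1%, 52.2 to 88.4). Among genes with an event the arms lay between 74.7% and 84.1%, with chromosome 4 at 80.0%.

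Calls by 1 program alone were mostly those of Whippet. rMATS alone called 18, MAJIQ 10, JUM 6 and Cufflinks 4. CD98hc, an amino acid transporter heavy chain, is a MAJIQ example at 1, beside 0.509 with JUM, 0.453 with rMATS and 0.830 with Whippet in the authors' deposited tables. The rMATS example CG6959 has a cassette exon and scored 1 there, 0.792 with Whippet and 0 with Cufflinks in the authors' deposited tables. Values at the threshold show how fine the line is. In the authors' deposited tables Axud1 passed Cufflinks at 0.951 where Ric missed at 0.945, Ntf-2 passed MAJIQ at 0.953 where Hexo1 missed at 0.949, and CG2875 passed Whippet at 0.951.

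Of the 1118 AS-list genes without a call, 77 were in no table, 357 were listed by Cufflinks alone and 957 had a Cufflinks score of 0. Of the 1106 of them that were matched, 828 (74.9%) have 1 annotated transcript, 118 have more transcripts and no event, and 160 carry an event. The gene listed by all 6 programs and called by none was CG9705, with an alternative first exon and a retained intron and a top score of 0.656 with JUM in the authors' deposited table. ade2, of purine synthesis, and SKIP were listed by 5 programs. The Whippet score of ade2 was 0.798, 0.748 and 0.708 at the 60%, 40% and 20% levels in the authors' deposited tables, while SKIP passed with rMATS and Whippet at 60% only, at 0.9996 and 0.998 in the authors' deposited tables.

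The levels share their control libraries, so the scores stand side by side without a test. Cht6, a chitinase gene, had 4 calling programs at 60% and 0 at 40%, where in the authors' deposited tables it scored 0.414 with MAJIQ, 0.919 with rMATS, 0.927 with Whippet and 0.197 with Cufflinks. CG32432, which has a cassette exon, had 5 calling programs at 60% and 40% and 0 at 20%, where it scored 0.734 with JUM and 0.192 with MAJIQ in the authors' deposited tables. Axud1 went from 5 programs at 40% to rMATS alone at 20%. Some genes went against the order of the levels. fabp, a fatty acid binding protein, passed with JUM at 40% and 20%, and the authors' deposited JUM table does not list it at 60%. Its annotated span (3R, 11559896 to 11567054, minus strand, BDGP6.54) is also that of the non-AS-list gene sea. In the authors' deposited tables sea scored 1 with JUM at 60% and 20%, and JUM did not list it at 40%. Whether scores moved between these gene names was not tested. Clc, the clathrin light chain, had Cufflinks scores of 0.9997, 0 and 0.961 at 60%, 40% and 20% in the authors' deposited tables, and Mvl, a metal transporter, 0.841, 0.9986 and 0.0605.

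**Figure D5:**
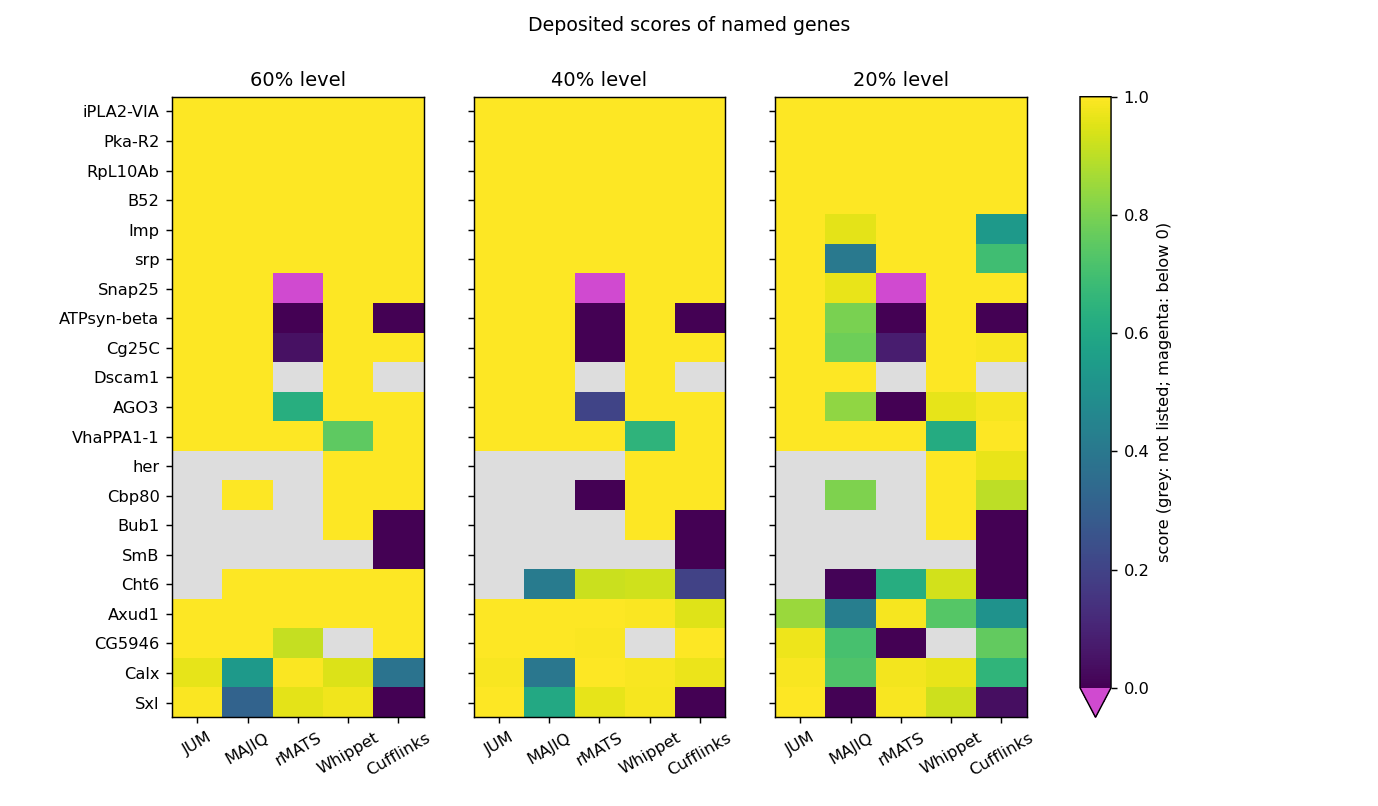
Deposited scores of 21 named genes with 5 programs (columns) at the 60%, 40% and 20% levels (panels), from 0 (dark) to 1 (yellow); grey means that the gene is not in the table, and magenta means a score below 0. Genes such as RpL10Ab and B52 stay yellow in all panels, while Imp and srp lose the MAJIQ or Cufflinks score at 20%.

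The 223 non-AS-list genes with a call give the other side of the lists. Of the 217 that were matched, 80.2% (74.3 to 85.3) carry an event, against 30.4% of all matched non-AS-list genes. Overlap with an AS-list gene on either strand was found for 27.2% (21.4 to 33.6), against 8.84% of all matched non-AS-list genes. It was 30 of 38 for MAJIQ calls (78.9%, 62.7 to 90.4), 11 of 22 for Cufflinks calls, 14 of 71 for JUM calls, 6 of 31 for rMATS calls and 11 of 86 for Whippet calls. Whether reads were counted by strand is not given in the sources used here, so whether the programs separated reads of overlapping genes is unknown. The part of overlap in these calls was not tested. CG5946 (3L, 11816695 to 11822275, BDGP6.54), called by 4 programs, overlaps the AS-list gene CG11597, and Tyler, called by 3, overlaps Shawn. Calx, a sodium-calcium exchanger that overlaps no AS-list gene, was called by 4, with 0.9897 from JUM, 0.997 from rMATS, 0.989 from Whippet and 0.9702 from Cufflinks in the authors' deposited tables. Sxl, the master gene of sex determination, has 20 intron chains and scored 0.997 with JUM, 0.964 with rMATS and 0.988 with Whippet in the authors' deposited tables, against 0.604 with MAJIQ and 0 with Cufflinks. sdk, a cell adhesion gene of the eye, passed with the same 3 programs.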

How the data were processed

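For each program and level the authors deposited a table of gene, score and class label, 18 tables in all, and 2 gene lists; the 6 tables at 40% were used, with those at 60% and 20% beside them. Each score is used as deposited by the authors, higher meaning stronger evidence of change. The labels do not state the scales; the values look like Bayes factors for MISO, probabilities for MAJIQ and Whippet, and 1 minus a significance value for JUM, rMATS and Cufflinks, so the threshold need not be equally strict across programs. STAR 2.5.4b, Cufflinks and the build dm3 appear in the submitters' processing notes. How reads were simulated, how many there were and how each program was set is not given in the sources used here. In every row the class label matched the lists (0 mismatches).

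A call was a score of 0.95 or more, or a Bayes factor of 10 or more. Shares have 95% Clopper-Pearson intervals and areas under the ROC curve, with ties counted as 0.5, have DeLong intervals. Both cover the counting of genes only. Gene names were matched to Ensembl release 115 of BDGP6.54 by current symbol (12402) or a unique older symbol (3931), 16333 of 16595 (98.4%). An older symbol leading to a gene that another name also leads to was dropped (63). Event types were derived by comparing exons and introns of a gene's annotated transcripts, and alternative first or last exons had to be non-overlapping.

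Genes were named by a rule: called by 6 or else 5 programs, up to 12 by mean rank; up to 4 called by each program alone; the 8 non-AS-list genes with most calls; up to 4 AS-list members per group; the 6 listed most and called by none; the 6 with the largest gain or loss of calling programs between neighbouring levels; the nearest genes inside and outside each threshold; and Psi. Other members of the groups, the MISO calls, genes with no event and rMATS scores below 0 were named after their values were seen. 1 member of a group is not reported here. The comparison, the 28 gene groups and the rule were chosen with earlier results of these data known. From the groups, 8 names that the patterns caught by mistake (such as Notum and Ptpa) were removed after the data were seen. Alternatives changed the threshold, the gene universe, the number or set of programs and the transcripts used. On scores simulated for each program's table (100 sets each, 328 to 14361 genes) the mean area missed its known value by at most 0.00185. Intervals covered that value in 90 to 98 of 100 sets. The simulated scores were normal, without ties and at a single known area, whereas Cufflinks gave 13635 of its 14361 genes a score of 0. How areas and intervals behave with tied scores was therefore not checked. Of the toy gene models, 8 of 8 gave the right events. Python 3.11.15, numpy 2.4.6, scipy 1.17.1, pandas 2.3.3 and matplotlib 3.10.9 were used.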

Additional observations from a re-analysis of the deposited data

How the results depend on the processing

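Of the main results under their alternatives, 43 values stayed within the limits set for a change, 17 moved and 0 reversed; of the counts per gene group 22 stayed and 6 moved. With thresholds of 0.9 and a Bayes factor of 5, non-AS-list calls rose to 124 for JUM, 48 for rMATS and 190 for Whippet, and the AS-list share of calls was 81.9%, 89.4% and 81.7%. With 0.99 and a Bayes factor of 20 they were 35, 16 and 24, with shares of 94.0%, 96.0% and 96.9%. Over all genes of both lists, with unlisted genes tied last, the area under the ROC curve was 0.630 for JUM, 0.653 for MAJIQ and 0.607 for rMATS. It was 0.834 for Whippet, 0.641 for Cufflinks and 0.524 for MISO. The order of programs thus changed, with Whippet first and JUM below MAJIQ and Cufflinks. A rule of 5 or more programs left 235 AS-list genes. A rule of 2 or more programs left 0 mitochondrial ribosomal protein, 0 proteasome and 1 mitochondrial respiration gene called, 3 of cell polarity, 3 of the cell cycle and 9 noncoding genes. No paired analysis was possible because each table pools the libraries of both groups into 1 score per gene; for the same reason no library could be left out, and what depth limits is unknown.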
